A study of Homo sapiens with 8 samples.

Results

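NODAL, TDGF1 and FOXH1 encode a ligand, its co-receptor and a nuclear partner of the Nodal pathway, and the called binding regions of SMAD2 and TEAD4 around these 3 genes were examined in WA09 cells, an established line of human embryonic stem cells. A region belonged to a gene when at least 1 bp of it lay in the gene body or within 50 kb of it. The gene bodies were taken on hg19 as chr10:72191692-72201465 for NODAL, chr3:46616045-46623953 for TDGF1 and chr8:145699115-145701718 for FOXH1. Of 972037 regions in 3 lists, 124 met this rule, 51 around NODAL, 45 around TDGF1 and 28 around FOXH1. They comprised 46 of 420548 SMAD2 regions from DMSO cells, 46 of 262109 TEAD4 regions from SB431542 cells and 32 of 289380 TEAD4 regions from DMSO cells.

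The regions come from chromatin immunoprecipitation followed by sequencing of WA09 cells on Matrigel in feeder-conditioned medium with knockout serum, which all groups share. Cells received 10 µM SB431542 for 4 h, or the solvent DMSO for the same time. Each group was 1 library from 1 line, so no value has a replicate error and no p-value is given. Read depth is unknown, and a region missing from a list was not called there at an unstated depth and threshold. Lists of regions hold no expression values, so that the cell type could not be checked against its markers.

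Nodal is a secreted ligand of the TGF-β family that acts through activin receptors, and human embryonic stem cells depend on this signal to stay pluripotent. The EGF-CFC protein encoded by TDGF1, also named Cripto, lets Nodal engage its receptors, which then phosphorylate SMAD2. Phosphorylated SMAD2 enters the nucleus with SMAD4, and FOXH1, a forkhead factor, is one of the proteins that bring this complex to DNA. In the mouse, Nodal, Tdgf1 and Foxh1 are themselves active in the epiblast, and an enhancer in the first intron of Nodal is driven by the pathway through Foxh1. SB431542 blocks the receptor kinases of this pathway. TEAD4 binds DNA for YAP and TAZ, the effectors of the Hippo pathway.

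Rows of each list are numbered from the top, and a low row was read as a high place in the authors' ranking. This reading rests on regions becoming narrower down each list, and no score was given to check it. In the SB431542 list width may itself have set part of the order. Members in rows 134152, 143829 and 158778 were 147, 133 and 114 bp wide, and the member in row 177522 was 184 bp wide. Some row differences there may thus be differences in width alone, which was not tested. The order has many ties. Runs of 10 or more consecutive rows sorted downwards by chromosome name and position held 88.9% of SMAD2 rows, 94.6% of TEAD4 rows from SB431542 cells and 97.6% of TEAD4 rows from DMSO cells. Rows of such a run were read as sharing 1 place in the ranking, though a tie may span more than 1 run. The longest run held 11104 rows. At the head of the lists the runs were short. Around members in the first 5000 rows a run held at most 430 rows, against up to 10857 rows around later members. The TEAD4 lists were also made differently, since all region starts in DMSO cells and 1.97% of those in SB431542 cells lie on a 50 bp grid. All SMAD2 starts lie on this grid as well. Treatment and list type cannot be told apart.

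NODAL had the highest-placed region of all members, a TEAD4 region in its upstream flank that was called under both treatments. NODAL is read towards lower coordinates from a start at 72201465, so higher coordinates lie upstream. In SB431542 cells this TEAD4 region lay at chr10:72215101-72215442 (row 402 of 262109), 13.6 kb upstream of the gene. In DMSO cells it lay at chr10:72215001-72215499 (row 41 of 289380), 13.5 kb upstream, and held the whole of the SB431542 region. A partner was the rule at that place in the list, since in DMSO cells each TEAD4 region of rows 1 to 100 met one of SB431542 cells (100%, 95% Wilson interval 96.3 to 100%). The NODAL region was the widest member of either TEAD4 list, with 342 bp in SB431542 cells and 499 bp in DMSO cells. No other TEAD4 region around NODAL had a partner under the other treatment. Thus 1 of 15 regions of SB431542 cells was matched (6.67%, interval 1.19 to 29.8%), against 6.39% of the whole list. In DMSO cells it was 1 of 14 (7.14%, interval 1.27 to 31.5%), against 5.69%. Both intervals include the list's share.

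TEAD4 regions gathered near this place without matching each other. In SB431542 cells regions lay at 72213111-72213294 (row 177522) and 72213463-72213640 (row 83076). In DMSO cells they lay at 72214101-72214249 (row 256140) and 72214451-72214549 (row 256139), which are neighbours in a run of 8353 tied rows. The SMAD2 region at 72213301-72213399 (row 380179) lay between the pair of SB431542 regions, 7 bp from one and 64 bp from the other. The leading TEAD4 region itself had no SMAD2 partner. The nearest SMAD2 region, called in DMSO cells, was that same region in row 380179. It lay 1.7 kb from the TEAD4 call of SB431542 cells and 1.6 kb from that of DMSO cells.

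The NODAL gene body held 2 regions of SMAD2, 1 of TEAD4 in SB431542 cells and 0 of TEAD4 in DMSO cells. The SMAD2 region with the lowest row around NODAL lay in the body at 72195501-72195799 (row 14466), and its near edge was 5666 bp past the start. The other lay at 72200251-72200499 (row 119575), 966 bp past the start. In SB431542 cells a single TEAD4 region was in the body, at 72195933-72196046 (row 158778), 134 bp from the first of these SMAD2 regions. In DMSO cells no TEAD4 region was called in the body, and the nearest lay 643 bp beyond its end at 72190801-72191049 (row 40527). Whether a region falls in an exon or an intron was not analysed here, because no hg19 annotation was used.

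Close to the NODAL body but outside it, SMAD2 and TEAD4 of DMSO cells came near each other in the upstream flank. SMAD2 regions lay at 72204251-72204349 (row 315009) and 72205001-72205149 (row 133910), and a TEAD4 region of DMSO cells lay 402 bp from the second, at 72205551-72205899 (row 7206). A further SMAD2 region lay downstream of the body at 72189601-72189799 (row 148382). No TEAD4 region of SB431542 cells lay outside the body within 5 kb of it.

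SMAD2 shared 4 places with TEAD4 around NODAL, and each was shared with 1 treatment alone. With TEAD4 of SB431542 cells the SMAD2 regions at 72182901-72182999 (row 209695) and 72234801-72234999 (row 60208) shared 74 and 108 bp. The TEAD4 regions there were in rows 65180 and 134152. With TEAD4 of DMSO cells the SMAD2 region at 72159101-72159299 (row 37007) lay inside the region at 72159001-72159349 (row 30190). The SMAD2 region at 72227601-72227699 (row 372999) lay inside the TEAD4 region at 72227551-72227749 (row 17383).

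**Figure D1:**
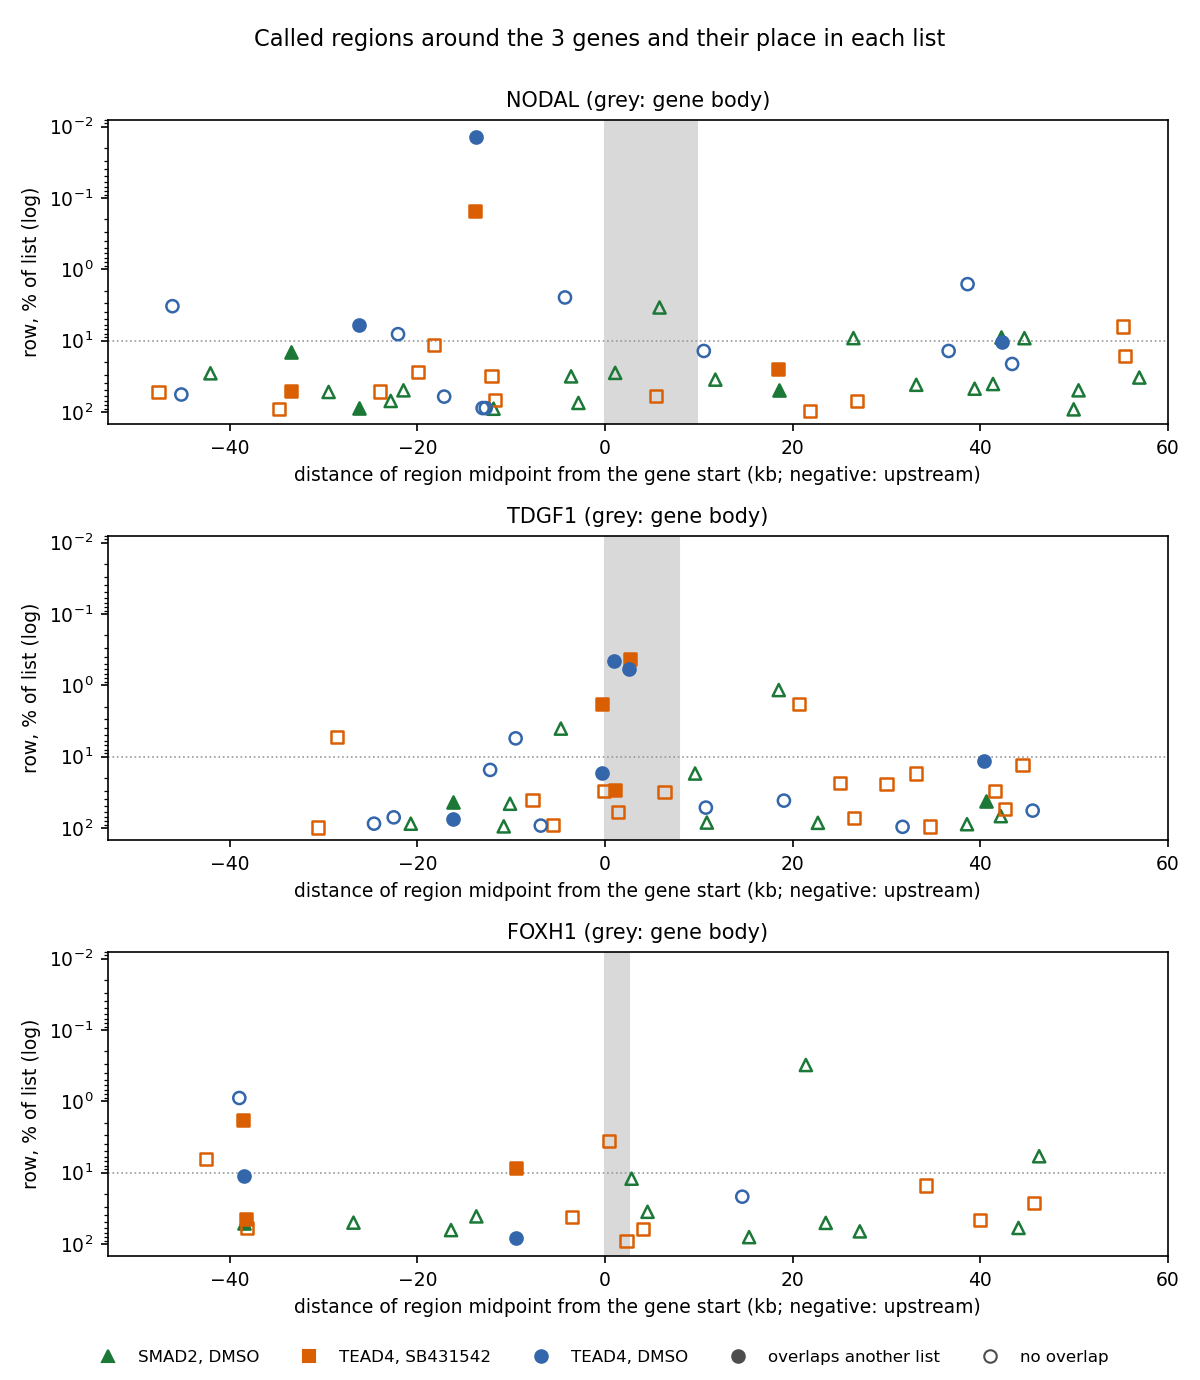
All 124 regions by distance of their midpoint from the gene start in kb (x axis, negative upstream) and by row as a percent of the list (y axis, logarithmic, low rows at the top), 1 panel per gene. Triangles are SMAD2 in DMSO cells, squares TEAD4 in SB431542 cells and circles TEAD4 in DMSO cells, filled where the region overlaps another list, the dotted line marks 10% of the list, and the leading NODAL pair in rows 402 and 41 stands above all others.

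TDGF1 carried TEAD4 regions in its body under both treatments and no SMAD2 region in its body or across its start. The body is 7909 bp of a window of 107909 bp that held 12 SMAD2 regions. A stretch of that length can easily hold none, and whether the absence is unusual was not tested. A TEAD4 region was called across the start in SB431542 cells alone, 81 bp from a TEAD4 region of DMSO cells. TDGF1 is read towards higher coordinates from a start at 46616045. In SB431542 cells 5 TEAD4 regions touched the body and 1 more ended 179 bp before it, and in DMSO cells 2 touched the body and 1 ended 246 bp before it. Each of these 3 DMSO regions overlapped an SB431542 region. They were 3 of the 14 TEAD4 regions of DMSO cells around TDGF1 (21.4%, 95% Wilson interval 7.57 to 47.6%), against 5.69% of the whole list. The other 11 had no partner. From the other side, 3 of 19 SB431542 regions around TDGF1 had a partner (15.8%, interval 5.52 to 37.6%). That interval includes the 6.39% of the whole SB431542 list. The DMSO regions in rows 1306 and 1716 stand in a part of their list where 19.8% had a partner. For them 5.69% is therefore not a like share.

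The pair that was placed high in both lists lay inside the TDGF1 body. In SB431542 cells it was at chr3:46618563-46618844 (row 1144), 2518 to 2799 bp past the start, and in DMSO cells at chr3:46618501-46618799 (row 1716), 2456 to 2754 bp past the start. These regions shared 237 bp, which is 84.0% of the SB431542 region and 79.3% of the DMSO region. A second pair lay at 46617001-46617197 (row 76451) in SB431542 cells and 46616801-46617249 (row 1306) in DMSO cells. Its DMSO region was the best placed TEAD4 region of DMSO cells around TDGF1, whereas its SB431542 partner stood at 29.2% of that list.

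The third TDGF1 pair lay just upstream of the start, and here the SB431542 region had the lower row. It was called at 46615620-46615866 (row 4736) in SB431542 cells and at 46615701-46615799 (row 48899) in DMSO cells. A neighbouring region of SB431542 cells, 46615880-46616069 (row 80707), reached from 165 bp before to 24 bp past the start. It lay 81 bp from the DMSO region in row 48899, and the TEAD4 lists were made differently. Further SB431542 regions without a DMSO partner lay in the body at 46617375-46617490 (row 156958) and 46622302-46622482 (row 82386). RefSeq lists copies of TDGF1 on other chromosomes, most of them pseudogenes, so reads from its exons could be placed on a copy, and how the authors treated such reads is not given in the sources used here.

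The promoter sequences of TDGF1 and NODAL are shown, and none of FOXH1 was found in the RefSeq promoters used. A TEAD4 region of SB431542 cells spanned the TDGF1 start, and no list held a region within 250 bp upstream of the NODAL start. The sequences are the 250 bases before the RefSeq start, 5′ to 3′ in the direction of the gene, on GRCh38.p14. That is another build than hg19, and the hg19 regions were not carried over to it. Capitals mark letters searched on both strands, CATTCC or GGAATG as the core bound by TEAD factors and GTCT or AGAC as the short box bound by SMAD proteins.
TDGF1 chr3:46574285-46574534, plus strand: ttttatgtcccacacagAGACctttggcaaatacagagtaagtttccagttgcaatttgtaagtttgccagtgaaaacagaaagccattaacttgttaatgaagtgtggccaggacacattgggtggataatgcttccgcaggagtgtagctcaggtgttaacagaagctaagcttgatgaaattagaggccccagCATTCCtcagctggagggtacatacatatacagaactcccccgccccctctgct
NODAL chr10:70441682-70441931, minus strand: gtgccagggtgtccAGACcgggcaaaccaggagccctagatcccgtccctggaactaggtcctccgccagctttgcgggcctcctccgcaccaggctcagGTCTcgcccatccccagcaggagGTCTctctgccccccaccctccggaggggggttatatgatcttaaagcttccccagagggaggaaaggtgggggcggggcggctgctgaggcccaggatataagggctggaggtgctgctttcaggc

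The TDGF1 promoter held 1 TEAD core, 54 to 49 bases before the start, and 1 SMAD box, 233 to 230 bases before it. If the hg19 start is the same base, the SB431542 region from 165 bp before to 24 bp past the start covers this TEAD core, and the pair further upstream does not. The NODAL promoter held 3 SMAD boxes and no TEAD core. The letters AATNCACA or TGTGNATT, which FOXH1 binds, were in neither window. No matches overlapped each other. Among 35116 RefSeq promoters cut to the same length, 11.9% held the TEAD core, 77.5% the SMAD box and 2.89% the FOXH1 letters, and the SMAD box is therefore of little weight in a single promoter. RefSeq gives TDGF1 2 starts 3253 bases apart. If the hg19 start is the same base as the first, the TEAD4 pair in rows 1144 and 1716 lies upstream of the second. The second window held 3 SMAD boxes, no TEAD core and no FOXH1 letters.

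SMAD2 regions flanked TDGF1 on both sides. Upstream, a SMAD2 region lay at 46611201-46611499 (row 17063), 4.55 kb before the body. Downstream, SMAD2 regions lay at 46625551-46625749 (row 72746) and 46626851-46626949 (row 354657), and the second was 2 bp from a TEAD4 region of DMSO cells at 46626751-46626849 (row 150386). Both lists lie on the 50 bp grid, so these regions adjoin on it and the 2 bp are not a measured gap. The best placed SMAD2 region around TDGF1 lay 10.5 kb past the gene at 46634451-46634699 (row 4916), with a TEAD4 region of DMSO cells 352 bp away (row 120045). In SB431542 cells the nearest TEAD4 region to it was 1928 bp away, at 46636627-46636854 (row 4760).

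SMAD2 and TEAD4 of DMSO cells overlapped at 2 places around TDGF1, both outside the gene body. These were 2 of 12 SMAD2 regions (16.7%, 95% Wilson interval 4.7 to 44.8%), and the interval includes the 5.29% of the whole SMAD2 list. Upstream, the SMAD2 region at 46599801-46599899 (row 181509) lay inside the TEAD4 region at 46599801-46599949 (row 215541). Downstream, the SMAD2 region at 46656551-46656749 (row 177059) shared 99 bp with the TEAD4 region at 46656351-46656649 (row 33499). With TEAD4 of SB431542 cells, 0 of 12 SMAD2 regions around TDGF1 overlapped (95% Wilson interval 0 to 24.2%), against 3.39% of the whole SMAD2 list, so that a difference from the list was not detectable.

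**Figure D2:**
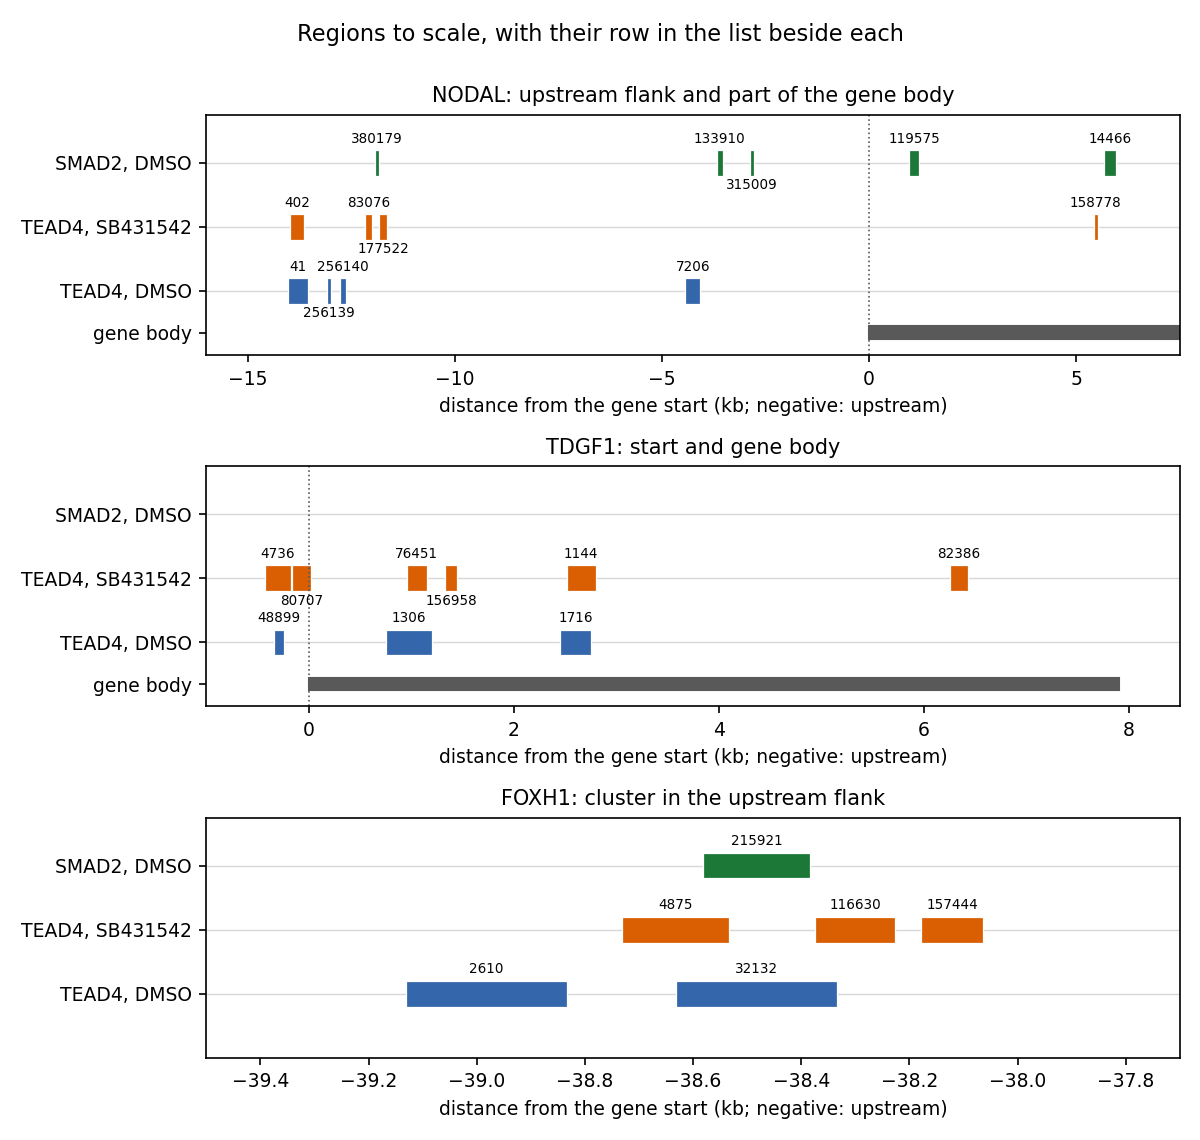
Regions drawn to scale by distance from the gene start in kb (x axis, negative upstream), with SMAD2 in DMSO cells, TEAD4 in SB431542 cells and TEAD4 in DMSO cells from top to bottom and the row in the list beside each region. The panels show the NODAL pair in rows 402 and 41, the 3 TDGF1 pairs with no SMAD2 region in the body, and the FOXH1 cluster that holds regions of all 3 lists.

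FOXH1, the transcription factor of the group, had a TEAD4 region close to its start in SB431542 cells and none within 5 kb in DMSO cells. FOXH1 is read towards lower coordinates from a start at 145701718. In SB431542 cells TEAD4 regions lay in its body at chr8:145701233-145701430 (row 9478), 288 to 485 bp past the start, and at 145699373-145699484 (row 239460). Others lay at 145697644-145697752 (row 161909) beyond the end and at 145705147-145705344 (row 110309) upstream. In DMSO cells the nearest TEAD4 region was 9.43 kb upstream at 145711151-145711249 (row 241825). It lay inside an SB431542 region at 145711071-145711267 (row 22400).

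No SMAD2 region touched the FOXH1 body, which is 2604 bp of a window of 102604 bp with 12 SMAD2 regions, so that none is ordinary. The nearest SMAD2 region lay 166 bp beyond the end of the body at 145698801-145698949 (row 51408), and another lay at 145697101-145697249 (row 149504). The best placed SMAD2 region of all members was in this flank, 18.7 kb beyond the gene at 145680151-145680449 (row 1308 of 420548). The nearest TEAD4 region was 12574 bp away in SB431542 cells and 6552 bp away in DMSO cells.

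A cluster upstream of FOXH1 held the only place among the members where all 3 lists overlapped. How often all 3 overlap over the whole lists was not counted, so whether such a place is unusual was not tested. The SMAD2 region at 145740101-145740299 (row 215921) shared 48 bp with the TEAD4 region of SB431542 cells at 145740252-145740449 (row 4875). It lay inside the TEAD4 region of DMSO cells at 145740051-145740349 (row 32132), which also met a second SB431542 region at 145739944-145740093 (row 116630). The best placed TEAD4 region of DMSO cells around FOXH1 was next to this place at 145740551-145740849 (row 2610). It lay 102 bp from an SB431542 region and 252 bp from the SMAD2 region but overlapped neither. These TEAD4 regions of DMSO cells were 38.3 and 38.8 kb from the FOXH1 body.

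Nearby genes differ between the 3 places. By the RefSeq gene table on GRCh38.p14, used for names alone, 13 other protein-coding genes lie within 50 kb of FOXH1, among them KIFC2, which overlaps it, PPP1R16A, GPT and RECQL4. For NODAL the number is 3 (LRRC20, EIF4EBP2 and PALD1), and for TDGF1, listed there as CRIPTO, it is 2 (LRRC2 and FAM240A). Position does not tell which gene a region acts on.

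The number of regions per gene was set beside consecutive windows of the same length on the same chromosome that held at least 1 region of any list. NODAL had 22 SMAD2 regions, against a median of 17 (quartiles 14 and 20) over 1196 windows. Its TEAD4 regions numbered 15 in SB431542 cells (median 10, quartiles 8 and 13) and 14 in DMSO cells (median 11, quartiles 8 and 14). TDGF1 had 12 SMAD2 regions (median 16, quartiles 14 and 19 over 1806 windows). Its TEAD4 regions numbered 19 in SB431542 cells (median 10, quartiles 7 and 12) and 14 in DMSO cells (median 11, quartiles 9 and 14). As many as 19 were found in 57 of the 1806 windows.

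FOXH1 had 12 SMAD2 regions (median 15, quartiles 13 and 19 over 1393 windows). Its TEAD4 regions numbered 12 in SB431542 cells (median 9, quartiles 7 and 12) and 4 in DMSO cells (median 10, quartiles 8 and 13). No more than 4 were found in 67 of the 1393 windows. NODAL was thus above the upper quartile for SMAD2, and TDGF1 and FOXH1 were below the lower one. For TEAD4 of DMSO cells NODAL and TDGF1 were at the upper quartile and FOXH1 was below the lower one.

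**Figure D3:**
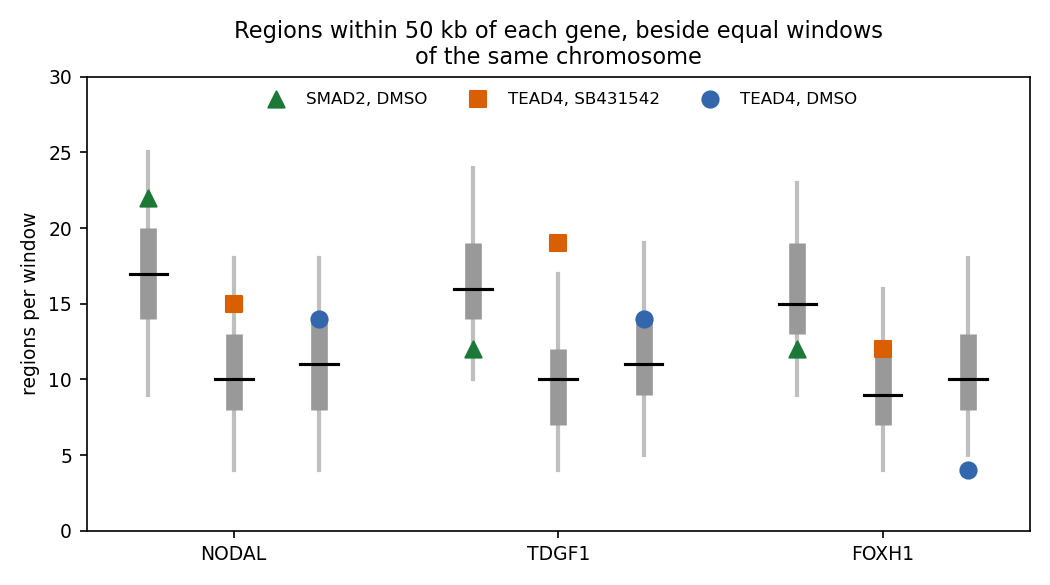
Regions per window (y axis) within 50 kb of each gene, as coloured symbols for SMAD2 in DMSO cells, TEAD4 in SB431542 cells and TEAD4 in DMSO cells, beside windows of equal length on the same chromosome. Black lines are the medians of those windows, thick grey bars the quartiles and thin grey lines the 5th to 95th percentiles, and the 19 TDGF1 regions of SB431542 cells and the 4 FOXH1 regions of DMSO cells lie outside the thin lines.

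The place of the members in the lists differed by gene and list. In the first 10% of rows, which by construction holds 10% of each whole list, were 8 of 46 SMAD2 members (17.4%), 10 of 46 TEAD4 members of SB431542 cells (21.7%) and 10 of 32 TEAD4 members of DMSO cells (31.2%). The median place was 46.6% of the list for SMAD2, 31.1% for TEAD4 in SB431542 cells and 16.1% for TEAD4 in DMSO cells. By gene the median place of SMAD2 members was 41.2% for NODAL, 57.2% for TDGF1 and 50.6% for FOXH1. For TEAD4 in SB431542 cells it was 51.2% for NODAL, 30.8% for TDGF1 and 34.2% for FOXH1, and for TEAD4 in DMSO cells 12.2%, 46.7% and 16.5% in the same order. Medians past 50%, in the lower part of the list, were thus found for SMAD2 around TDGF1 and FOXH1 and for TEAD4 of SB431542 cells around NODAL. Of the 10 TEAD4 members of DMSO cells in the first 10% of rows, 6 lay around NODAL. No SMAD2 region around NODAL was in the first 5000 rows, against 1 each around TDGF1 and FOXH1.

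In DMSO cells SMAD2 and TEAD4 met at 5 places among the members. Of the 46 SMAD2 members 5 overlapped TEAD4 of DMSO cells (10.9%, interval 4.73 to 23.0%), against 5.29% of the whole SMAD2 list. Of the 32 TEAD4 members of DMSO cells 5 overlapped SMAD2 (15.6%, interval 6.86 to 31.8%), against 7.67% of that list. Both intervals include the share of the whole list, so a difference from it was not detectable with these numbers. In the first 5000 rows were 2 SMAD2 and 5 TEAD4 members, and 0 of them overlapped, against 7.72% and 11.7% of all regions in those rows, which is too few to show a difference.

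With an overlap of at least 1 bp, the share of TEAD4 members matched between treatments was above that of the whole lists, and this held under some of the other overlap rules alone. Of the 46 members of SB431542 cells 7 overlapped a region of DMSO cells (15.2%, interval 7.57 to 28.2%), against 6.39% of the whole list. Of the 32 members of DMSO cells 6 overlapped a region of SB431542 cells (18.8%, interval 8.89 to 35.3%), against 5.69% of the whole list. Both intervals lie above the whole-list share. The SB431542 members in rows 116630 and 4875 met the same DMSO region (row 32132), so these 7 members met 6 DMSO regions. The first interval treats them as 7 independent matches, and its lower end of 7.57% is close to 6.39%. When 50% of both regions had to overlap, the shares were 6.52% of SB431542 members (interval 2.24 to 17.5%), against 2.51% of the list, and 9.38% of DMSO members (interval 3.24 to 24.2%), against 2.28%. The first of these intervals includes the list's share and the second lies above it. When regions within 500 bp counted as matched, the shares were 23.9% of SB431542 members (interval 13.9 to 37.9%), against 16.4%, and 8 of 32 DMSO members (interval 13.3 to 42.1%), against 14.7%, and both intervals include the list's share. With midpoints within 100 bp they were 10.9% of SB431542 members (interval 4.73 to 23.0%), against 3.98%, and 15.6% of DMSO members (interval 6.86 to 31.8%), against 3.6%, and both intervals lie above it.

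Matching TEAD4 regions were more frequent in the first 5000 rows of the lists than after them. In the first 5000 rows 4 of 5 SB431542 members had a partner (80.0%, interval 37.6 to 96.4%), against 29.1% of all regions in those rows. For DMSO cells it was 3 of 5 members (interval 23.1 to 88.2%), against 29.6%, which the interval includes. Within these rows the share in the DMSO list was itself uneven, with 100% in rows 1 to 100, 65.3% in the next 900 rows and 19.8% in the 4000 rows after those. In the SB431542 list it was lowest at the very head, with 20.0%, 43.0% and 26.2% in the same order.

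After row 5000 the shares of matching TEAD4 members were 3 of 41 in SB431542 cells (7.32%, interval 2.52 to 19.4%) and 3 of 27 in DMSO cells (11.1%, interval 3.85 to 28.1%). The whole lists gave 5.95% and 5.27% for these rows, inside both intervals. The intervals (95%, Wilson) reflect nothing but counting, as if each region were independent of its neighbours. The comparison between treatments and the one with SMAD2 share the TEAD4 list of DMSO cells.

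SMAD2 of DMSO cells and TEAD4 of SB431542 cells overlapped at 3 places, 2 around NODAL and 1 around FOXH1. The share was 3 of 46 SMAD2 members (6.52%, interval 2.24 to 17.5%), against 3.39% of the list. It was 3 of 46 TEAD4 members of SB431542 cells (6.52%, interval 2.24 to 17.5%), against 5.46% of the list. Both whole-list shares lie inside the intervals.

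**Figure D4:**
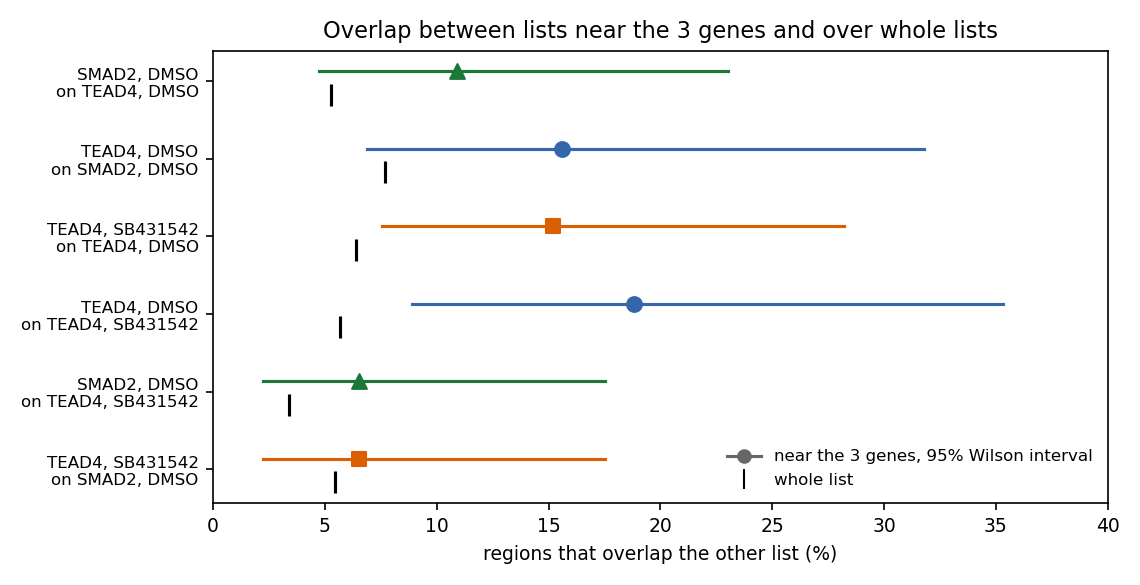
Share of regions that overlap another list by at least 1 bp, in percent (x axis), for the members around the 3 genes (coloured symbols with 95% Wilson intervals) and for whole lists (black ticks), 1 row per direction of overlap. For TEAD4 between treatments the intervals (7.57 to 28.2% and 8.89 to 35.3%) lie above the ticks at 6.39% and 5.69%. The first interval counts separately the SB431542 members in rows 116630 and 4875, which met the same DMSO region.

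Distances to the nearest region of the other list varied by gene, and the order of the genes changed with the list the distance was measured from. The median over SMAD2 members to TEAD4 of DMSO cells was 2.05 kb around NODAL, 1.05 kb around TDGF1 and 8.78 kb around FOXH1, against 3.1 kb over the whole SMAD2 list (quartiles 1.05 and 7.1 kb). From TEAD4 members of DMSO cells to SMAD2 it was 1.00 kb around NODAL, 1.83 kb around TDGF1 and 0.427 kb around FOXH1, against 1.8 kb over that list (quartiles 0.602 and 3.95 kb). FOXH1 thus had the longest of these medians in one direction and the shortest in the other, with 4 TEAD4 regions called there in DMSO cells. From TEAD4 members of SB431542 cells to those of DMSO cells the median was 4.88 kb around NODAL, 1.2 kb around TDGF1 and 7.62 kb around FOXH1, against 3.27 kb over the list (quartiles 1.03 and 7.34 kb). From TEAD4 members of DMSO cells to those of SB431542 cells it was 2.16 kb around NODAL, 1.31 kb around TDGF1 and 0.051 kb around FOXH1, against 3.42 kb over the list (quartiles 1.18 and 7.41 kb).

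The limit of 50 kb was a choice. The farthest member of a list lay 34.2 to 47.5 kb from its gene body, and the nearest region outside lay 50.1 to 63.1 kb away. Other genes of the pathway were not analysed here, because their hg19 positions are in none of the sources used.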

How the data were processed

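ChIP-seq regions of WA09 cells were taken from 3 deposited lists without header, whose 3 columns place each region by chromosome and by first and last position in bp, with no count or score. The authors' coordinates are on hg19, per the submitters' processing notes. For the aligner, caller, threshold and control, nothing was given in the sources used here. The labels name 8 samples in 8 groups, and 5 groups, among them SMAD2 in SB431542 cells, input and IgG, were not analysed here. Lists were tied to samples by target and treatment. Starts were raised by 1 bp, and regions overlapping by at least 1 bp were called shared. Distances run edge to edge. The direction of FOXH1 is textbook knowledge. Promoters and gene names are from RefSeq (GRCh38.p14). All 3 genes matched by name, but promoter sequences were found for NODAL and TDGF1 alone.

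The members, lists and comparisons were chosen with earlier results of these data known. Regions were named by position when within 5 kb of a gene body, lowest in row for a gene and list, or overlapping another list. TEAD4 and SMAD2 regions near the leading regions of NODAL and TDGF1 were added after their values were seen. Overlap and distance functions were tested on simulated data. Software was Python 3.11.15 with SciPy 1.17.1, NumPy 2.4.6 and, for figures, matplotlib 3.10.9.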

Additional observations from a re-analysis of the deposited data

How the results depend on the processing

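Of 51 alternatives to 11 results, 34 stayed close to the value reported (counts and distances within 1.5 times, shares inside the reported interval). Of these, 27 were shares, and their intervals are wide, so this number says little about how stable the shares are. For SMAD2 members on TEAD4 of DMSO cells, 21.7% with regions within 500 bp counted as close to 10.9%. Member counts follow the window and the rows used by construction. In the order SMAD2 in DMSO, TEAD4 in SB431542 and TEAD4 in DMSO they were 28, 27 and 21 with a flank of 25 kb, 104, 73 and 52 with 100 kb, 27, 29 and 20 in the first 50% of rows, and 8, 10 and 10 in the first 10%. Midpoints in the window left 46, 46 and 32. With a flank of 25 kb the share of SMAD2 members on TEAD4 of DMSO cells was 3.57% and that of TEAD4 members of DMSO cells on SMAD2 was 4.76%, since 1 shared place was left. When regions within 500 bp counted as shared, the share of TEAD4 members of DMSO cells on SMAD2 was 34.4%. The share of TEAD4 members of SB431542 cells on those of DMSO cells was 6.52% when 50% of both regions had to overlap, and 7.32% for rows after 5000, a setting chosen after seeing the data, like regions read as 1 bp wider and the whole-list shares under each overlap rule. Row order stood in for a score. No paired analysis was possible because there was a single library in every group, and none could be left out. Depth is unknown.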

Other observations

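Between 50 and 100 kb from the gene bodies lay 20 SMAD2 regions for NODAL, 17 for TDGF1 and 21 for FOXH1. For TEAD4 these numbers were 12, 9 and 6 in SB431542 cells and 8, 6 and 6 in DMSO cells, in the same order of genes. A lowest row depends on how many regions are counted, so it is given as a value and not set against that of the members. The lowest row there was 7538 for NODAL, 12338 for TDGF1 and 33754 for FOXH1 in the SMAD2 list. It was 12730, 47613 and 69745 for TEAD4 in SB431542 cells, and 10817, 4513 and 27899 for TEAD4 in DMSO cells, in the same order of genes. The SMAD2 region in row 7538 (chr10:72109851-72110149) was 81.5 kb from NODAL.

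3 SMAD2 regions around NODAL stood in consecutive rows (209694 to 209696), although they lie in the upstream and downstream flanks. They belong to a run of 7701 rows sorted by position, so their neighbouring rows come from their neighbouring positions.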
